A study of Mus musculus with 9 samples.

Results

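The 42 collagen genes measured in 3T3-L1 adipocytes were described here, out of 18193 genes with a measured value. 3T3-L1 is an established line of mouse preadipocytes that turn into fat cells when induced in culture, so all replicates came from a single line. A gene counted as a collagen where its symbol in the array annotation was Col, digits, a, digits, and where that was the only symbol of the probe set. A probe set is a group of short probes on the array that reads a single transcript or part of one. The collagens had 82 probe sets among the 45037 tested, and the brightest of each gene, by its mean over the 9 arrays, stood for the gene. They comprised 11 fibrillar collagens, 8 basement membrane collagens (the type IV chains, Col15a1 and Col18a1) and 23 others.

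Adipocyte cultures had been given linoleic acid (LA, the control), conjugated linoleic acid (CLA) or phenformin, with 3 arrays each that the labels call biological replicates. LA and CLA are isomers, and the double bonds of CLA are conjugated while those of LA are separated by a methylene group. Phenformin, a biguanide drug, slows mitochondrial respiration and thereby activates the energy sensor AMPK. The question of the series was how AMPK and prostaglandins take part when adipocytes are exposed to CLA. The labels give no dose, no duration and no CLA isomer, nor do they say whether the phenformin cultures also received a fatty acid, so the treatments are not known to be matched. The control was itself a fatty acid, and a culture without one was not analysed here.

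Collagens are made as procollagen chains that fold into triple helices in the endoplasmic reticulum, which requires hydroxylation of prolines and lysines and the chaperone Serpinh1. After secretion and removal of the propeptides, fibrillar collagens assemble into fibrils that lysyl oxidases crosslink, whereas type IV collagen forms the sheet-like network of basement membranes and type VI collagen forms beaded filaments. Preadipocytes lay down a matrix rich in fibrillar collagen, and fat cells are each surrounded by a basement membrane.

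The values are log2 expression values, so a difference of 1 is a 2-fold difference. Medians of the 9 arrays lay between 5.02 and 5.14, and their 99th percentiles between 12.20 and 12.48 except in LA replicate 3, where it was 11.63. Every LA array had a lower 99th percentile than every treated array. The highest was 12.35 in LA, and the lowest was 12.36 in CLA and 12.42 in phenformin. The 3′ minus 5′ difference of the pyruvate carboxylase probe sets, which grows when the 5′ end of the transcript is less well represented in the labelled RNA, was 5.35 ± 0.43 in LA (SD, n = 3). It was 4.02 ± 0.63 in CLA and 3.95 ± 0.60 in phenformin, and the arrays of LA lay above those of both other groups. All 7 adipocyte markers were above background on all 9 arrays. Of the markers of other tissues, 3 of 6 for macrophages, 1 of 5 for endothelium, 2 of 5 for muscle, 3 of 5 for cartilage and 2 of 3 for bone were above background on all arrays. Ptprc, Itgam, Tek, Vwf, Myf5 and Matn1 were above background on no array. Background was the 95th percentile, on each array, of 27 control probe sets for bacterial transcripts, which was between 3.68 and 4.20.

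Of the 42 collagens, 16 were higher in CLA than in LA and 0 were lower, at an adjusted p under 0.05 in a limma fit over all 9 arrays with Benjamini-Hochberg adjustment over all probe sets. Over all genes, 12.6% were called higher and 7.58% lower in that comparison. Phenformin gave 15 collagens higher than LA and 0 lower, against 13.7% of all genes higher and 5.11% lower. Both comparisons used the same LA arrays, so an array of LA that stood apart would move both, and the values of each are given side by side for the members. Between phenformin and CLA, 1 collagen was higher (Col11a1) and 0 were lower, where 3.95% of all genes were higher and 2.35% lower.

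All arrays of CLA lay above all arrays of LA in 18 collagens (19.8% of all genes) and below them in 1 (13% of all genes). For phenformin against LA these numbers were 18 (21.2% of all genes) and 3 (13.7%). Collagens called with at least a 2-fold difference numbered 8 in CLA vs LA, against 4.9% of all genes called higher by that rule. In phenformin vs LA there were 7, against 4.89%. The median log2 fold change over the 42 collagens was 0.23 in CLA vs LA, with 0.05 over all genes, and 0.02 in phenformin vs LA, with 0.01 over all genes. The calls were uneven over the classes. Of the 11 fibrillar collagens, 7 were called higher in each comparison with LA, of the 8 basement membrane collagens 4 and 3, and of the 23 others 5 and 5. Over all genes these shares were 12.6% and 13.7%. The classes also differed in signal. Most of the 15 collagens with no group mean above the median of all values were among the others, and none of the 15 was called. The part of signal level in the unevenness was not tested. In bulk samples, fewer cells of a type and less RNA per cell cannot be told apart.

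Most preadipocyte and fibroblast markers were also higher than in LA. Of 7 such markers, 5 were called higher in CLA (12.6% of all genes) and 4 in phenformin (13.7%), with 0 lower, and their summed level was 13.31 to 13.59 in LA, 14.41 to 14.53 in CLA and 14.33 to 14.53 in phenformin. Pdgfra, the receptor that marks adipocyte progenitors, was 2.20 higher in CLA and 2.11 higher in phenformin, and Dlk1, the preadipocyte factor, 2.48 and 2.02. Acta2 and Vim were also called in both, and Thy1 in CLA (1.95) but not in phenformin (0.74, limma adjusted p = 0.0901). Fn1 had 0.11 and 0.12 and was not called (limma adjusted p = 0.677 and 0.673), and Cd34 was above background on no array. The summed level of the 7 adipocyte markers was 15.49 to 16.38 in LA, 16.20 to 16.33 in CLA and 16.21 to 16.34 in phenformin. Adipoq, Fabp4 and Lpl, with group means near 14, made up most of that sum, so it says little about the dimmer markers. Single adipocyte markers went different ways. Pparg, the master regulator of fat cell differentiation, was lower in CLA by -1.25 (limma adjusted p = 0.0012) and had -0.58 in phenformin (adjusted p = 0.0619). Cidec, a lipid droplet protein, was higher in both, by 0.98 and 0.77, and the glucose transporter Slc2a4 was higher in phenformin, by 1.06. In CLA, Slc2a4 had -0.60 and was not called (limma adjusted p = 0.0568). Adipoq, Fabp4, Lpl and Cebpa were called in no comparison. The part of less differentiated cells in the collagen differences was not tested.

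**Figure D1:**
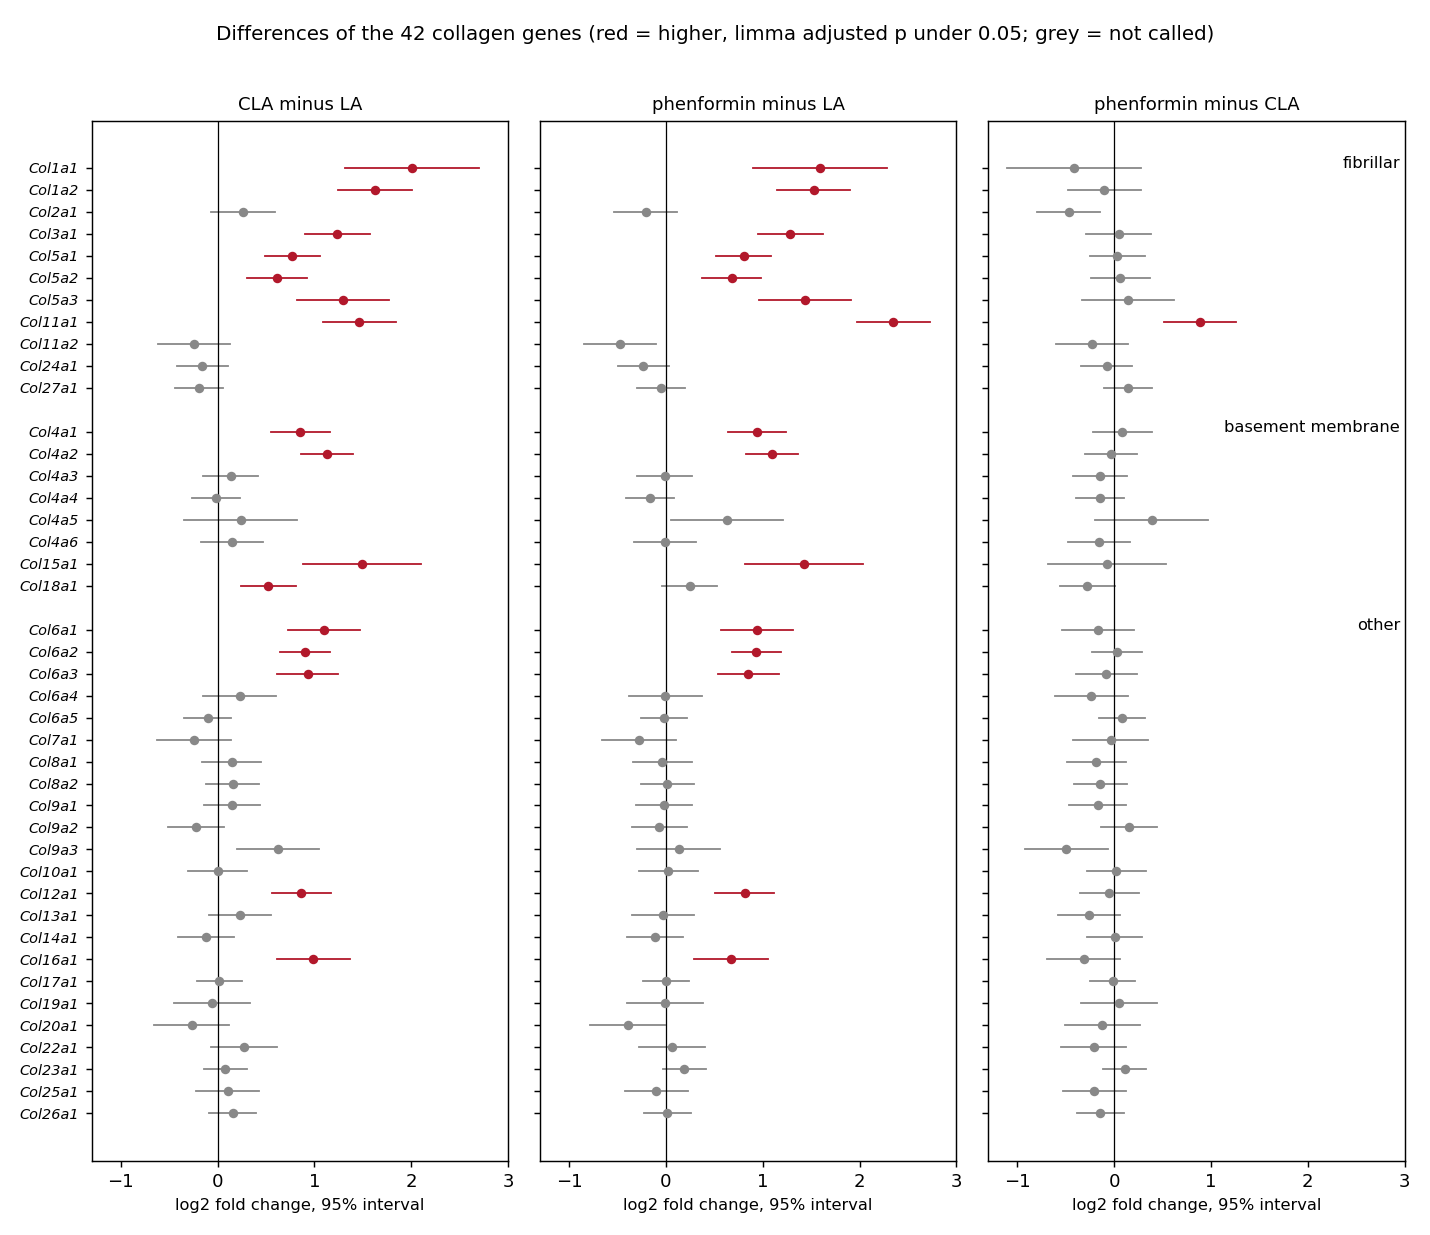
Log2 fold change of each of the 42 collagen genes with its 95% interval, for CLA minus LA, phenformin minus LA and phenformin minus CLA. Red marks an adjusted p under 0.05. The 16 and 15 red genes of the first 2 panels all lie to the right of 0, and only Col11a1 is red in the third.

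Type I and type III collagen make up the bulk of the fibrils of most connective tissues. Col1a1 (chr11:94936224-94953042 on GRCm38.p6), the alpha 1 chain of type I, had log2 values of 9.55, 9.87 and 10.27 in LA, 11.93, 11.60 and 12.18 in CLA, and 11.82, 10.70 and 11.95 in phenformin. Every treated array was above every LA array, and phenformin replicate 2 lay more than 1 below the other phenformin arrays. Col1a1 was 4.01-fold higher in CLA (log2 fold change 2.0 ± 0.31, SE, limma adjusted p = 0.0015) and 3.02-fold higher in phenformin (1.59 ± 0.31, adjusted p = 0.0060). Its other probe set rose in both as well, by 1.59 ± 0.15 and 1.34 ± 0.15.

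Col1a2 (chr6:4505618-4541543), the alpha 2 chain of type I, read 11.86, 12.13 and 12.24 in LA, 13.84, 13.80 and 13.45 in CLA, and 13.89, 13.55 and 13.36 in phenformin. The LA arrays lay together, more than 1 below any treated array. The log2 fold change was 1.62 ± 0.17 in CLA (limma adjusted p = 0.0001) and 1.53 ± 0.17 in phenformin (adjusted p = 0.0003). A second probe set of Col1a2 was called in both comparisons, and the dimmest, at 0.68 in CLA with an adjusted p of 0.162 by limma, only in phenformin.

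Col3a1 (chr1:45311538-45349706), the single chain of type III, was at 12.84, 12.95 and 12.43 in LA, 14.11, 13.84 and 13.97 in CLA, and 14.11, 14.08 and 13.88 in phenformin. LA replicate 3 was the lowest array, and the treated groups covered nearly the same range. It rose by 1.23 ± 0.15 in CLA (limma adjusted p = 0.0004) and by 1.28 ± 0.15 in phenformin (adjusted p = 0.0003).

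The promoter of Col1a2 is shown because the gene moved together with the other called collagens. This stretch of 250 bases ends at the base before the transcript start (RefSeq, GRCm38.p6, chr6:4505368-4505617, plus strand). Capitals mark CCAAT, the core of the box bound by the factor NF-Y, and GGGCGG, the GC box bound by Sp1 family factors, on either strand.
Col1a2: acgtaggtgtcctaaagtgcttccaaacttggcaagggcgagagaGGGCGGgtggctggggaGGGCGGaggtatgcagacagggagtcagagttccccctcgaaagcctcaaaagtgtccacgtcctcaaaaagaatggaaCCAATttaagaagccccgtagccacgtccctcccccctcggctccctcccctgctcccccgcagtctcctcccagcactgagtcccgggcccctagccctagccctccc

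Type V chains join type I in the same fibrils and limit fibril width, and all 3 measured chains rose in both treatments. Col5a1 lay between 10.16 and 10.43 in LA, 10.85 and 11.23 in CLA, and 11.03 and 11.12 in phenformin, with log2 fold changes of 0.77 and 0.80. Col5a2 lay between 11.30 and 11.63 in LA, 12.01 and 12.34 in CLA, and 12.06 and 12.28 in phenformin, with log2 fold changes of 0.61 and 0.68. Neither gene had a treated array within the LA range. Both lost their calls in both comparisons after quantile normalization between arrays, where Col5a1 had 0.48 in each (limma adjusted p = 0.114 and 0.117) and Col5a2 had 0.28 and 0.32 (adjusted p = 0.207 and 0.152). Without CLA replicate 1, Col5a2 had 0.51 in CLA vs LA, with a limma adjusted p of 0.0547.

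Col5a3 (chr9:20770050-20815117), the type V chain with the largest difference, had 8.33, 8.62 and 9.24 in LA, 10.02, 10.07 and 9.98 in CLA, and 10.14, 9.91 and 10.45 in phenformin. LA varied most, with replicate 3 the highest, and the CLA arrays were nearly equal. The gene was 2.45-fold higher in CLA (1.29 ± 0.21, limma adjusted p = 0.0022) and 2.71-fold higher in phenformin (1.44 ± 0.21, adjusted p = 0.0013). A second probe set, called in neither (0.25 and 0.18, limma adjusted p = 0.197 and 0.371), was above background on no array, so the gene was measured by a single probe set.

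Col11a1 (chr3:114030479-114220756), a type XI chain known from cartilage fibrils, was the collagen that also separated the treatments. Its values were 3.77, 3.67 and 4.22 in LA, 5.33, 5.42 and 5.30 in CLA, and 6.50, 6.19 and 6.01 in phenformin. The 3 groups did not overlap, with LA lowest and phenformin highest. Of the LA arrays only replicate 3 was above background, by a small margin (background 4.20), so the LA level lay near the limit of measurement. Col11a1 was 2.76-fold higher in CLA (1.46 ± 0.17, limma adjusted p = 0.0002) and 5.1-fold higher in phenformin (2.35 ± 0.17, adjusted p = 1.92e-05), which made it the largest rise of a collagen under phenformin. Phenformin exceeded CLA by 0.89 ± 0.17 (1.85-fold, limma adjusted p = 0.0157). The second probe set of the gene had 0.92 ± 0.22 for that difference (limma adjusted p = 0.0427), but was below background on all LA and CLA arrays and was not called in CLA vs LA (0.49, adjusted p = 0.171).

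The difference of Col11a1 between phenformin and CLA was near the threshold when a single array was left out. Its limma adjusted p was 0.0694 without CLA replicate 1, 0.0515 without CLA replicate 2, 0.0616 without phenformin replicate 1 and 0.0583 without phenformin replicate 2, and the log2 fold change then lay between 0.75 and 0.92. Among the cartilage markers, Sox9, a transcription factor of cartilage that other cells also express, was 1.23 higher in CLA and 0.55 higher in phenformin than in LA. Unlike Col11a1, Sox9 was lower in phenformin than in CLA, by -0.68 (limma adjusted p = 0.0402). The summed level of the 5 cartilage markers was 7.06 to 7.49 in LA, 7.86 to 7.99 in CLA and 7.44 to 7.54 in phenformin. Matn1 was above background on no array, Acan, Comp and Matn3 were not called, and the part of such cells in the Col11a1 values was not tested.

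The promoter stretch of Col11a1 is given because it was the collagen called between the treatments, with the same marking as for Col1a2 (RefSeq, GRCm38.p6, chr3:114030290-114030539, plus strand). It ends before a transcript start that lies inside the annotated span of the gene, so its last bases lie in that span too.
Col11a1: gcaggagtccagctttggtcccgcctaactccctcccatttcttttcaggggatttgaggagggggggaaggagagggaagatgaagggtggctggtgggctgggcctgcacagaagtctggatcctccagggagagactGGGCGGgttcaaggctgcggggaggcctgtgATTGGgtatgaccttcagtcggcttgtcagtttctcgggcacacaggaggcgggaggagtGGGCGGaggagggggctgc

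The remaining 4 fibrillar collagens, Col2a1, Col11a2, Col24a1 and Col27a1, passed the test in no comparison. Col2a1, the main collagen of cartilage, was 5.17, 5.22 and 5.17 in LA, 5.35, 5.76 and 5.24 in CLA, and 4.89, 4.89 and 5.17 in phenformin. Its CLA arrays lay above those of LA and its phenformin arrays at or below them, but the difference between phenformin and CLA was -0.47 ± 0.15 with a limma adjusted p of 0.119. Col11a2 had the most negative difference of all collagens in phenformin vs LA, at -0.47 (95% interval -0.84 to -0.10, limma adjusted p = 0.0849), and without LA replicate 1 it was called lower, at -0.63 (adjusted p = 0.0336). Col24a1 was above background on no array. Col27a1 was well above background and had -0.19 in CLA (95% interval -0.44 to 0.06) and -0.05 in phenformin (-0.30 to 0.20).

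**Figure D2:**
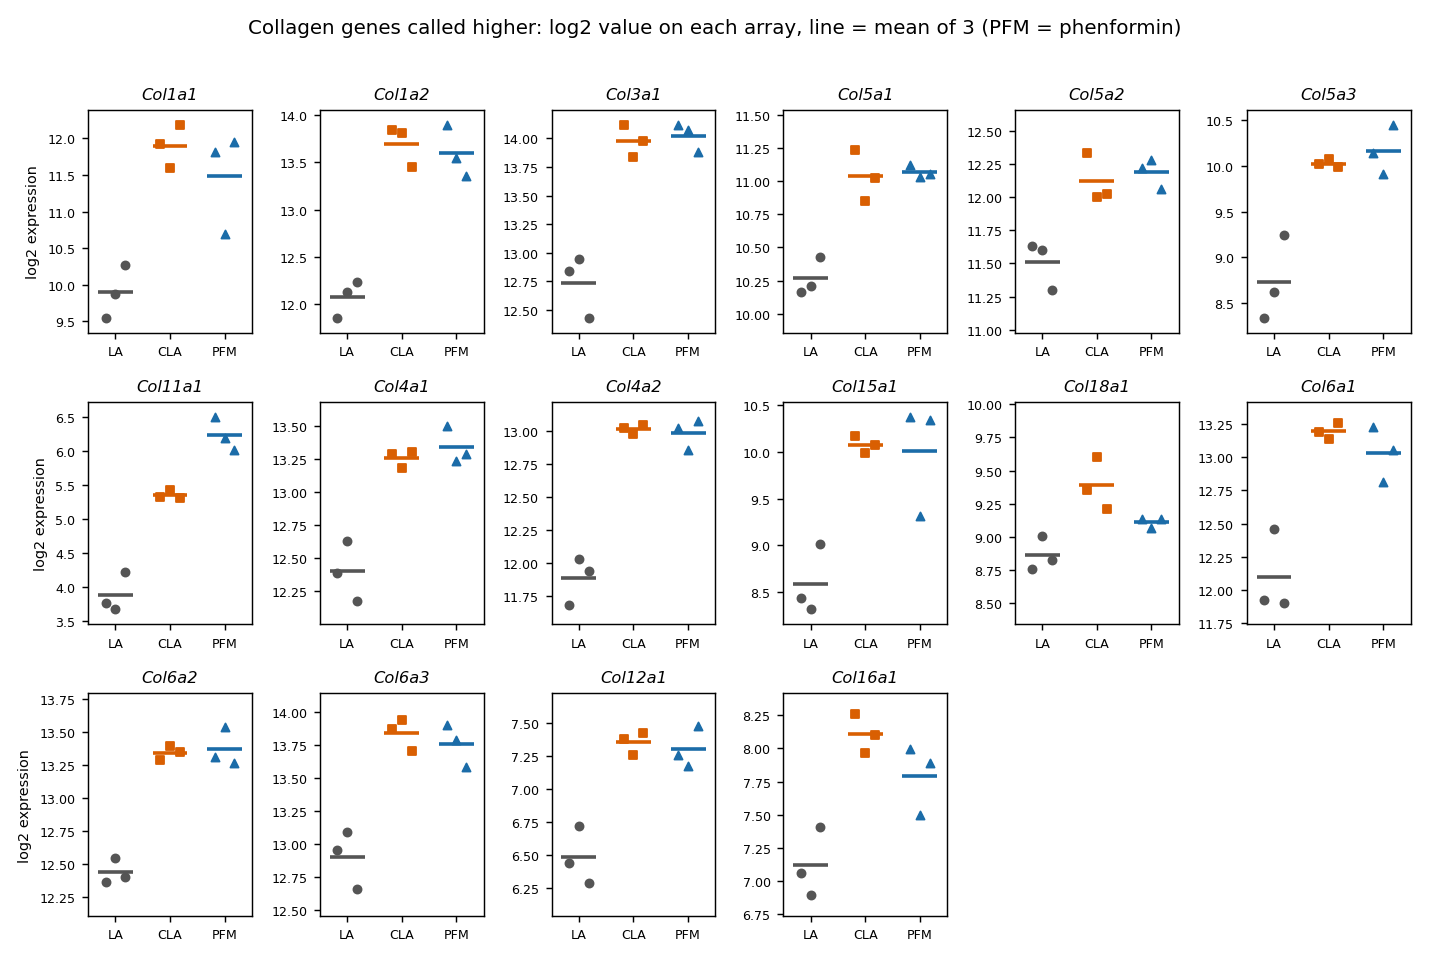
Log2 value on each of the 9 arrays for the 16 collagen genes called in at least 1 comparison, with the mean of each group as a line. The axis of each panel has its own range and does not start at 0. In every panel the 3 LA arrays (grey) lie below the CLA (orange) and phenformin (blue, PFM) arrays, and in Col11a1 the phenformin arrays lie above those of CLA.

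Among the basement membrane collagens, the rise was in Col4a1, Col4a2, Col15a1 and, in CLA, Col18a1. Col4a1 and Col4a2 encode the chains of the type IV network found in nearly all basement membranes. Col4a2 (chr8:11312805-11449287) was at 11.68, 12.03 and 11.94 in LA, 13.02, 12.97 and 13.04 in CLA, and 13.02, 12.85 and 13.07 in phenformin. The treated arrays lay close together and far above every LA array. Its log2 fold changes were 1.13 ± 0.12 (2.18-fold, limma adjusted p = 0.0002) and 1.10 ± 0.12 (2.14-fold, adjusted p = 0.0002). Col4a1 (chr8:11198423-11312889) lay between 12.18 and 12.63 in LA, 13.18 and 13.30 in CLA, and 13.23 and 13.50 in phenformin. It rose by 0.85 ± 0.14 and 0.94 ± 0.14, and its second probe set by 1.40 ± 0.16 and 1.24 ± 0.16.

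Col4a1 on the minus strand and Col4a2 on the plus strand lie head to head, and their annotated spans overlap by 85 bases. The 250 bases before a transcript start of each are shown because each stretch lies within the annotated span of the other gene, at chr8:11312827-11313076 on the minus strand for Col4a1 and at chr8:11312555-11312804 on the plus strand for Col4a2 (RefSeq, GRCm38.p6). The transcript start used for Col4a1 is inside its annotated span, so that stretch also overlaps Col4a1 itself. Capitals again mark CCAAT and GGGCGG on either strand.
Col4a1: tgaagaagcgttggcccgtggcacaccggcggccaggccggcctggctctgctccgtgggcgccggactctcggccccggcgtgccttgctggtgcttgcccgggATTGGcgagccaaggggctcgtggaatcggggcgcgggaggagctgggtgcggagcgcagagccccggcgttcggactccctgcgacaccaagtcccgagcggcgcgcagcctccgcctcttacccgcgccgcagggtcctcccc
Col4a2: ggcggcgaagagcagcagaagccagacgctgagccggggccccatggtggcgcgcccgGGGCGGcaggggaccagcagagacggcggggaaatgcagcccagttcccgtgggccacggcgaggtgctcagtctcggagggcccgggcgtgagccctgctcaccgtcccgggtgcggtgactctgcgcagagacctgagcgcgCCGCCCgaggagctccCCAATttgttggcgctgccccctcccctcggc

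The other type IV chains did not pass the test. Col4a3 and Col4a4 are likewise arranged head to head, as are Col4a5 and Col4a6 on the X chromosome, and these chains serve specialised membranes such as that of the kidney glomerulus. Col4a3 lay near background, Col4a4 was above it on no array, and Col4a6 had log2 fold changes of 0.15 and -0.01. Col4a5 was far above background, at 9.48, 9.23 and 8.53 in LA, 9.57, 8.83 and 9.56 in CLA, and 9.64, 9.95 and 9.54 in phenformin. Its phenformin arrays lay above all LA arrays while those of CLA overlapped them, and the difference of phenformin from LA was 0.63 ± 0.26 with a limma adjusted p of 0.141.

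Col15a1 and Col18a1 are the multiplexin collagens of basement membranes, and a fragment of Col18a1 is the angiogenesis inhibitor endostatin. Col15a1 (chr4:47207655-47313167) had 8.43, 8.31 and 9.01 in LA, 10.17, 9.99 and 10.08 in CLA, and 10.38, 9.31 and 10.35 in phenformin. CLA was tight, whereas phenformin replicate 2 came near LA replicate 3 without reaching it. The log2 fold changes were 1.49 ± 0.27 (2.82-fold, limma adjusted p = 0.0040) and 1.43 ± 0.27 (2.69-fold, adjusted p = 0.0054).

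Col18a1 lay between 8.76 and 9.01 in LA, 9.21 and 9.60 in CLA, and 9.06 and 9.13 in phenformin. It was called in CLA (0.52 ± 0.13, limma adjusted p = 0.0178) and not in phenformin (0.25 ± 0.13, adjusted p = 0.240). The treatments themselves differed by -0.28 ± 0.13 (limma adjusted p = 0.313), so a difference between them was not shown. The second probe set of the gene had nearly equal log2 fold changes, 0.40 in CLA (limma adjusted p = 0.0628) and 0.47 in phenformin (adjusted p = 0.0326), and was called only in phenformin. In CLA vs LA the limma adjusted p of Col18a1 was 0.0712 without LA replicate 1, 0.0509 without CLA replicate 1, 0.0630 without CLA replicate 2, and 0.0990 after quantile normalization.

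Of the 23 other collagens, the 3 main chains of type VI and the fibril-associated Col12a1 and Col16a1 were called in both comparisons with LA. Type VI collagen forms beaded filaments and is a major component of the matrix of fat tissue. Col6a1 (chr10:76708792-76726044) read 11.92, 12.46 and 11.90 in LA, 13.19, 13.14 and 13.26 in CLA, and 13.23, 12.81 and 13.05 in phenformin. LA replicate 2 was the highest of its group and still lay below every treated array. Col6a1 rose 2.15-fold in CLA (1.10 ± 0.17, limma adjusted p = 0.0013) and 1.91-fold in phenformin (0.94 ± 0.17, adjusted p = 0.0036).

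Col6a2 lay between 12.36 and 12.55 in LA, 13.28 and 13.39 in CLA, and 13.27 and 13.54 in phenformin, and rose by 0.90 and 0.93. Col6a3 lay between 12.66 and 13.09 in LA, 13.70 and 13.93 in CLA, and 13.58 and 13.90 in phenformin, and rose by 0.93 and 0.85. The rises of all 3 chains were therefore between 0.85 and 1.10, and no treated array overlapped LA. After quantile normalization Col6a2 had 0.52 and 0.54 and was not called (limma adjusted p = 0.0666 and 0.0640). Col6a4 and Col6a5, later-described relatives of Col6a3, were not called by their brightest probe sets. The dimmer probe set of Col6a4 was lower in both treatments, by -0.45 ± 0.12 (limma adjusted p = 0.0261) and -0.51 ± 0.12 (adjusted p = 0.0150), at levels between 3.51 and 4.23 that lay near background.

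Col12a1 and Col16a1 belong to the collagens with interrupted triple helices that decorate fibrils. Col12a1 lay between 6.29 and 6.72 in LA, 7.26 and 7.42 in CLA, and 7.18 and 7.47 in phenformin, and rose by 0.87 ± 0.14 and 0.82 ± 0.14. Its 4 probe sets were not alike. The second brightest had 0.44 in CLA (limma adjusted p = 0.0974) and 1.06 in phenformin (adjusted p = 0.0014), and the other two were above background on no array. Col16a1 lay between 6.89 and 7.41 in LA, 7.97 and 8.26 in CLA, and 7.50 and 8.0 in phenformin. It rose by 0.99 ± 0.17 (limma adjusted p = 0.0028) and 0.67 ± 0.17 (adjusted p = 0.0218). In phenformin vs LA its limma adjusted p was between 0.0662 and 0.0929 without LA replicate 1, LA replicate 2, phenformin replicate 1 or phenformin replicate 3, and 0.152 after quantile normalization.

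The type IX chain Col9a3, a partner of type II fibrils in cartilage, missed the threshold in CLA vs LA by little. It was 5.15, 5.28 and 4.98 in LA, 5.98, 6.02 and 5.28 in CLA, and 5.40, 5.12 and 5.28 in phenformin. CLA replicates 1 and 2 stood above all other arrays, and CLA replicate 3 lay within the range of the rest. The difference was 0.62 ± 0.19 (95% interval 0.20 to 1.05, limma adjusted p = 0.0501), and 0.86 without CLA replicate 3 (adjusted p = 0.0027). Its other 2 probe sets were above background on no array and bear on neither outcome.

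The remaining collagens of this class had log2 fold changes between -0.27 and 0.27 in CLA and between -0.39 and 0.19 in phenformin. They were Col7a1 of the anchoring fibrils of skin, the network formers Col8a1, Col8a2 and Col10a1, the membrane-spanning Col13a1, Col17a1, Col23a1 and Col25a1, the fibril-associated Col9a1, Col9a2, Col14a1, Col19a1, Col20a1 and Col22a1, and Col26a1. Of these, Col7a1, Col20a1 and Col25a1 were well above background and are the more informative negatives. Col7a1 had 95% intervals of -0.63 to 0.14 in CLA and -0.66 to 0.11 in phenformin, so a 2-fold rise lay outside both. For Col25a1 the intervals were -0.22 to 0.43 and -0.42 to 0.23. Col20a1 had -0.27 and -0.39 by its brightest probe set, and 1 of its 4 probe sets was called lower in CLA (-0.54 ± 0.17, limma adjusted p = 0.0485).

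Many of the uncalled collagens had low signal. Of the 42 genes, 31 were above background on all 9 arrays, 5 on some and 6 on none (Col4a4, Col6a5, Col8a2, Col17a1, Col24a1 and Col26a1). In 15 genes no group mean exceeded the median of all values, 5.07, and all 15 were among the 26 called in neither comparison with LA. For those genes the arrays say little about a change.

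Of the 42 genes, 27 had several probe sets, and in 0 of them were probe sets called in opposite directions. In CLA vs LA, 11 of the 16 called genes had several, and in 6 of these all probe sets were called higher. In Col5a3, Col11a1, Col12a1 and Col18a1 the brightest was the only one called. In phenformin vs LA, 10 of the 15 had several, all probe sets were called higher in 7, and the brightest alone in Col5a3.

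**Figure D3:**
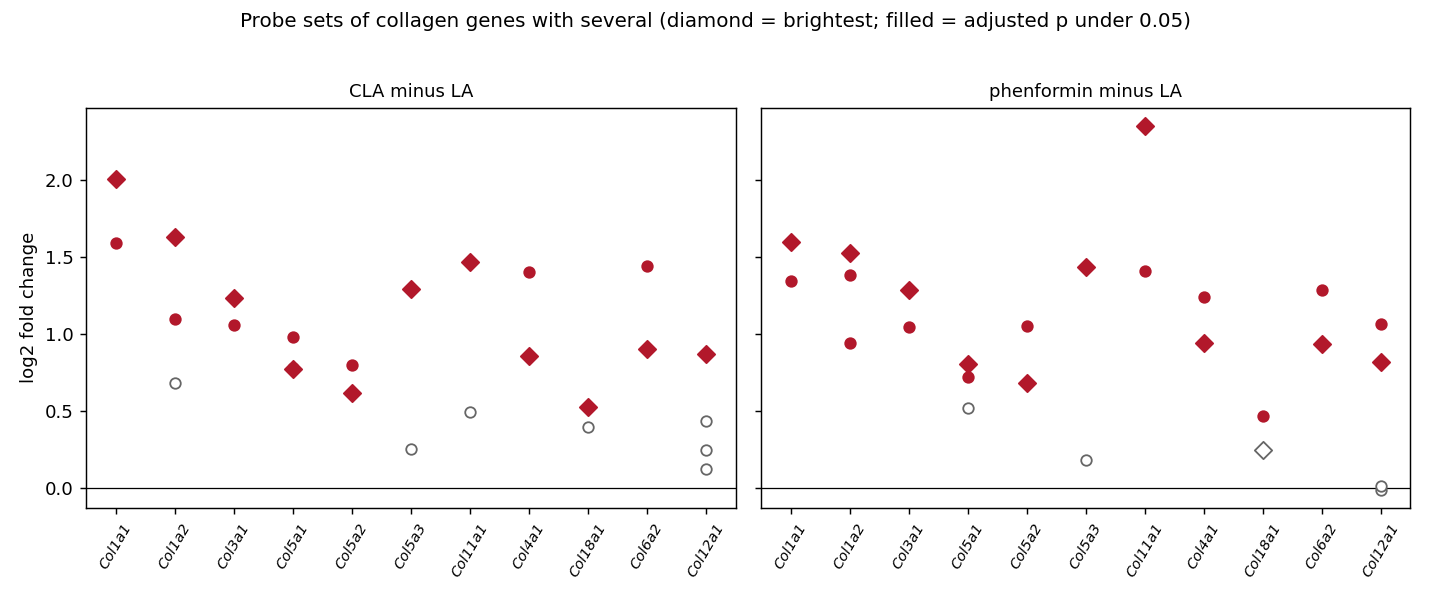
Log2 fold change of every probe set of the 11 called collagen genes that have several, for CLA minus LA and phenformin minus LA. Diamonds are the brightest probe sets, filled symbols have an adjusted p under 0.05, and nearly all symbols lie above 0, the dim Col12a1 probe sets at or near it.

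Side by side, the 95% interval of the difference between phenformin and CLA lay within 2-fold for 14 of the 16 called collagens. The exceptions were Col1a1, at -1.11 to 0.28 for phenformin minus CLA, and Col11a1, at 0.51 to 1.26. Narrower intervals included Col4a2 at -0.30 to 0.24 and Col1a2 at -0.48 to 0.28. The 2-fold margin is wide, as only 8 of the called collagens in CLA and 7 in phenformin reached 2-fold over LA. Col16a1, at -0.69 to 0.06, and Col18a1, at -0.56 to 0.01, lay within it. An interval within the margin therefore does not show equal levels. Of the 42 collagens, 3 had all phenformin arrays above all CLA arrays and 5 had all below, where these shares over all genes were 15.6% and 11.6%.

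The genes that fold, process, crosslink and sense collagen were described from a list of 42 measured genes. Of these, 15 were higher in CLA than in LA and 0 lower, and 11 were higher in phenformin and 0 lower, against the same 12.6% and 13.7% of all genes. Between phenformin and CLA, 0 were higher and 2 were lower, where 3.95% of all genes were higher and 2.35% lower. The hydroxylation genes had 5 and 3 of 13 higher, the chaperone, glycosylation and export genes 2 and 2 of 10, and the propeptide genes 2 and 2 of 6. The crosslinking genes had 3 and 1 of 4 higher, and the receptors 3 and 3 of 9. The shares over all genes are again 12.6% and 13.7%, and these groups are too small to set apart from each other.

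P4ha1 and P4ha2, the catalytic subunits of prolyl 4-hydroxylase, rose in both treatments. P4ha1 had 8.03, 8.01 and 8.11 in LA, 9.25, 9.49 and 9.32 in CLA, and 8.87, 8.96 and 9.05 in phenformin. Its groups did not overlap, with phenformin between LA and CLA, and the log2 fold changes were 1.30 ± 0.11 (limma adjusted p = 3.33e-05) and 0.91 ± 0.11 (adjusted p = 0.0004). Phenformin minus CLA was -0.39 ± 0.11 and was not called (limma adjusted p = 0.0798). P4ha2 rose by 1.04 ± 0.12 and 0.76 ± 0.12. The lysyl hydroxylase Plod2 had 0.04 and 0.26 and was not called (limma adjusted p = 0.864 and 0.237).

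Serpinh1, the collagen chaperone HSP47, was 10.63, 11.02 and 10.79 in LA, 12.41, 12.26 and 12.81 in CLA, and 12.06, 11.80 and 12.52 in phenformin. Every treated array exceeded LA, and CLA and phenformin overlapped. The rises were 3.2-fold (1.68 ± 0.20, limma adjusted p = 0.0003) and 2.48-fold (1.31 ± 0.20, adjusted p = 0.0016). Sec24d, a component of the COPII coat that carries procollagen out of the endoplasmic reticulum, was 8.60, 8.28 and 8.43 in LA, 10.26, 10.28 and 9.93 in CLA, and 9.25, 9.54 and 8.91 in phenformin. All 3 groups were apart, with log2 fold changes of 1.72 ± 0.17 and 0.80 ± 0.17, and Sec24d was lower in phenformin than in CLA by -0.92 ± 0.17 (limma adjusted p = 0.0140).

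Bmp1, the protease that removes the C-propeptides, was higher in CLA by 0.66 ± 0.17 (limma adjusted p = 0.0256) and had 0.41 ± 0.17 in phenformin (adjusted p = 0.147). Among the crosslinking enzymes, Lox itself was not called, with 0.42 and 0.30 (limma adjusted p = 0.182 and 0.360). Loxl1 lay between 9.66 and 10.17 in LA, 10.76 and 11.04 in CLA, and 10.10 and 10.41 in phenformin. CLA stood apart from both other groups, with 1.06 ± 0.15 over LA, and phenformin was lower than CLA by -0.67 ± 0.15 (limma adjusted p = 0.0372).

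Of the receptors, Ddr2, a receptor tyrosine kinase for fibrillar collagen, rose by 1.20 ± 0.12 and 0.95 ± 0.12. Itgb1, the beta subunit shared by the collagen-binding integrins, rose by 1.20 ± 0.19 and 0.97 ± 0.19, and Mrc2, an endocytic collagen receptor, by 0.96 ± 0.16 and 0.82 ± 0.16. The collagen-binding integrin alpha chains Itga1, Itga2 and Itga10 and the receptor Ddr1 were not called in either comparison with LA.

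**Figure D4:**
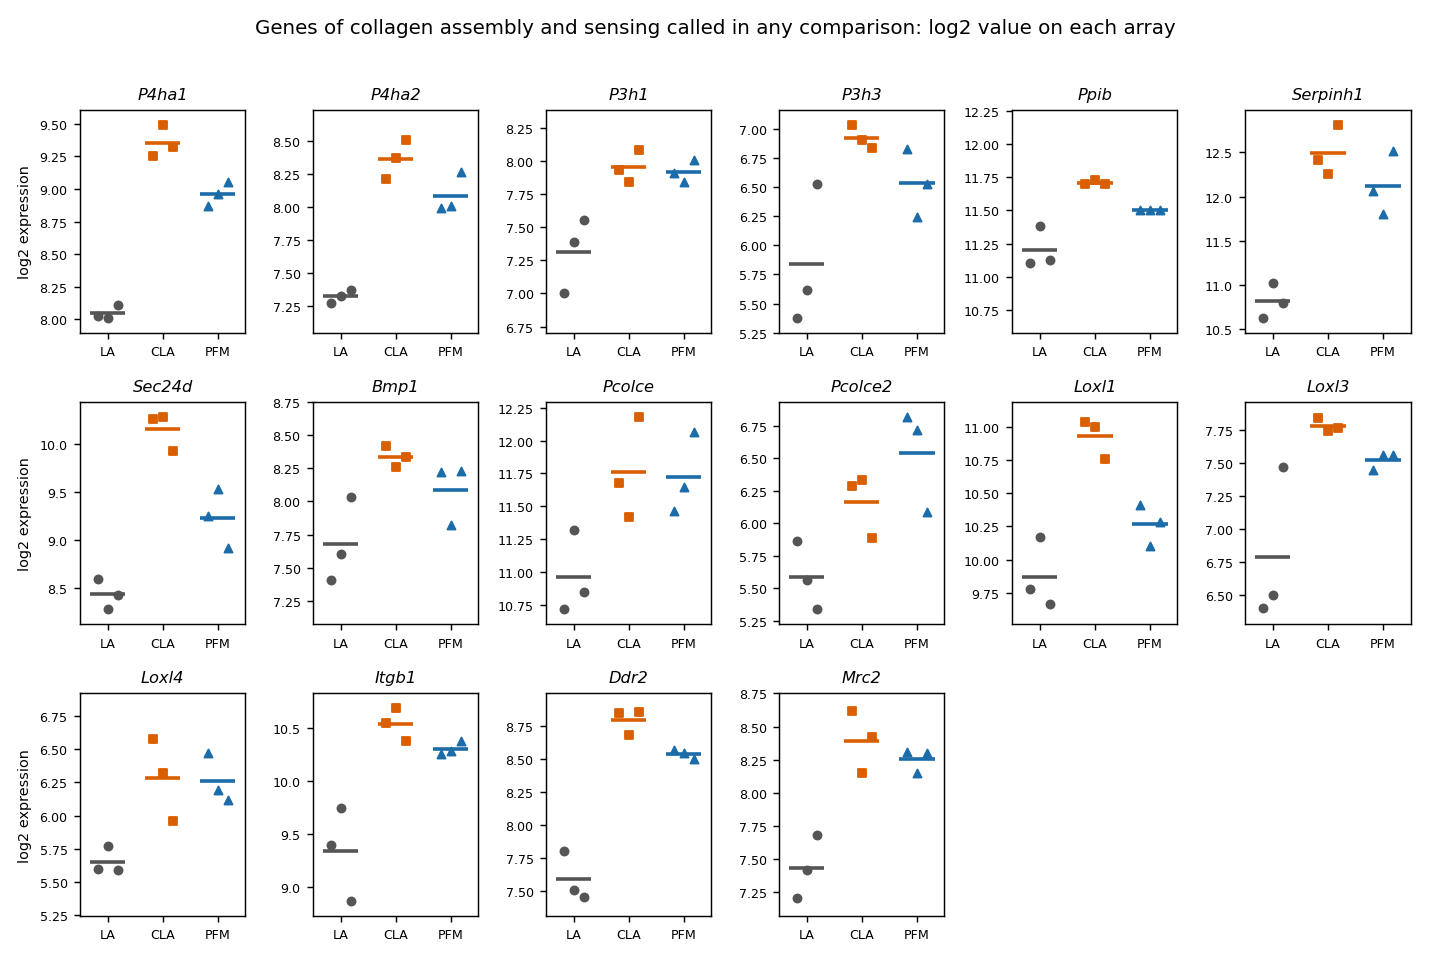
Log2 value on each array, with group means as lines, for the 16 genes of collagen folding, processing, crosslinking and sensing called in at least 1 comparison. Each panel has its own axis range. In P4ha1, P3h3, Ppib, Sec24d, Bmp1, Loxl1, Loxl3 and Ddr2 the CLA arrays (orange) lie above the phenformin arrays (blue, PFM) with no overlap. Of all 42 listed genes, shown or not, 10 had every phenformin array below CLA (11.6% of all genes) and 3 above (15.6%). Only Sec24d and Loxl1 were called between those groups.

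The 3′ minus 5′ values and the hybridization controls also moved with the groups. The 3′ minus 5′ difference of actin was 1.28 ± 0.39 in LA (SD, n = 3), 0.53 ± 0.10 in CLA and 0.56 ± 0.09 in phenformin. The hybridization controls, transcripts added in fixed amounts, had mean log2 values of 9.77 to 10.17 in LA, 11.07 to 12.71 in CLA and 10.56 to 11.51 in phenformin, so every LA array lay below every treated array, and the part of this in the collagen differences was not tested. With the pyruvate carboxylase difference as a covariate in the limma fit, 11 collagens were called higher in CLA vs LA and 9 in phenformin vs LA, with 0 lower in either, and the 11 included Col9a3, which the fit without the covariate did not call. Col1a1 then had 1.5 ± 0.46 (limma adjusted p = 0.0673) and 1.06 ± 0.48 (adjusted p = 0.221), and Col15a1 1.33 ± 0.44 (adjusted p = 0.0842) and 1.25 ± 0.45 (adjusted p = 0.131). Col5a3, Col12a1 and Col16a1 also lost both calls, Col18a1 its call in CLA and Col6a1 its call in phenformin. Of these, Col16a1 kept log2 fold changes of 0.98 and 0.66, with SEs of 0.28 and 0.29 in place of 0.17, and Col6a1 kept 0.91 ± 0.28 in phenformin. Those 2 estimates hardly moved while their errors widened. Col18a1 had 0.58 ± 0.20 in CLA. Smaller estimates as well as wider errors were seen in Col5a3 (0.91 ± 0.31 and 1.03 ± 0.32) and Col12a1 (0.74 ± 0.22 and 0.68 ± 0.22). Among collagens that kept both calls, most estimates were larger with the covariate. Col1a2 went from 1.62 to 1.92 in CLA and from 1.53 to 1.84 in phenformin. Col3a1, Col4a1, Col5a1, Col5a2, Col6a3 and Col11a1 also had larger estimates in both. Col4a2 went from 1.13 to 0.98 and from 1.10 to 0.94, and Col6a2 was slightly smaller. The covariate itself separates LA from both treated groups, so it and the treatments cannot be told apart well. After quantile normalization 13 and 11 collagens were called higher and 0 lower, the 13 being 12 of the original 16 and Col9a3. The log2 fold changes of the called collagens against LA were then smaller. Col4a1 went from 0.85 to 0.50 in CLA and from 0.94 to 0.57 in phenformin. Col6a3 went from 0.93 to 0.53 and from 0.85 to 0.48, while Col11a1 moved little (1.46 to 1.45 in CLA). Over all probe sets quantile normalization moved the share of calls that were higher from 61.4% to 46.6% in CLA vs LA, from 69.8% to 48.8% in phenformin vs LA, and from 63.1% to 52.4% in phenformin vs CLA. Without LA replicate 3, whose upper range was low, 16 and 15 collagens were called higher. The shares of all genes given above belong to the original fit. They are no baseline for the counts with the covariate, after quantile normalization or without an array.

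Promoter motifs were counted over the 36 windows of 33 collagen genes in the RefSeq table, each the 250 bases before a transcript start, on both strands. GGGCGG was in 21 of them (58.3%), against 32.7% of 32851 windows of all genes, and CCAAT in 13 (36.1%), against 33.85%. TATAAA was in 5 (13.9%, all windows 12.4%) and TGACTCA, the AP-1 motif, in 1 (2.78%, all windows 4.46%), that of Col6a1. Of the 15 windows of 13 called collagens, 9 held GGGCGG and 7 held CCAAT, and of the 21 windows of 20 other collagens, 12 and 6. A match of letters is a description of the window and not a site of binding.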

How the data were processed

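Biotinylated cRNA from Trizol-extracted RNA of 9 cultures was hybridized to Affymetrix mouse arrays, 1 per culture, per the labels' protocols. The deposited log2 values per probe set were made with RMA in R 2.9.0, according to the submitters' processing notes. The authors' deposited limma tables hold log2 fold changes, scores (moderated t, log odds), p-values and adjusted p-values, per the file headers.

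The 64 control probe sets were left out, which left 45037, of which 34945 had 1 symbol, 932 several and 9160 none here. Comparisons were contrasts in a single two-sided fit by lmFit and eBayes (limma 3.58.1 in R 4.3.3), with Benjamini-Hochberg adjustment. Permuting 3 against 3 arrays exactly gives no two-sided p below 0.1. The number of arrays limits the precision. The steps were tested on simulated data. The authors' deposited tables gave the same call for 42 of 42 collagens in each comparison.

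The members, classes and lists were chosen with earlier results of these data known. Values on every array are given for collagens called with at least a 2-fold difference. Col2a1, Col4a5 and Col9a3 were given likewise after their values were seen. Of 47 listed pathway genes 42 were measured (4 under another symbol), and the text names the 6 with the smallest adjusted p per comparison and Serpinh1, P4ha1, P4ha2, Plod2, Bmp1 and Lox. Of 42 listed cell type markers 38 were measured. Col6a6, Col21a1 and Col28a1 are not analysed here. Positions and promoters are from RefSeq tables of GRCm38.p6. Python 3.11.15, pandas 2.3.3 and matplotlib 3.10.9 were used for tables and figures.

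Alternatives were the replicate block, leaving out arrays, fitting only the groups compared, median centring, quantile normalization, a filter on dim probe sets, an intensity trend, array weights, a 2-fold minimum, the mean or most variable probe set of a gene, a 3′ minus 5′ covariate, and the authors' adjusted p-values.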

Additional observations from a re-analysis of the deposited data

How the results depend on the processing

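Of 504 recomputed log2 fold changes of the 8 collagens with at least a 2-fold called difference, 491 kept their side of the threshold and 13 lost their call. All 336 values against LA kept their sign. In phenformin vs CLA 6 values, called in neither setting, changed sign and lay between -0.02 and 0.28. The 8 genes were chosen by their calls in these same data, so much of this stability was fixed in advance. Leaving out an array of a group not compared could not change a log2 fold change. The lost calls of Col5a1, Col5a2, Col6a2, Col12a1, Col16a1 and Col18a1 are outside these counts. A 2-fold minimum left 8, 7 and 0 collagens higher in CLA vs LA, phenformin vs LA and phenformin vs CLA. With the 3′ minus 5′ covariate, 9 were higher in phenformin vs LA, and the covariate itself separates LA from the other groups. Array weights called 2 collagens lower in phenformin vs CLA (Col2a1 and Col9a3). The most variable probe set of each gene gave 1 lower in each comparison with LA (Col6a4, -0.45 and -0.51, where the brightest probe set had 0.23 and -0.00). Leaving out each array gave 14 to 17 collagens higher in CLA vs LA, 14 to 15 higher and 0 to 1 lower in phenformin vs LA, and 0 to 1 higher and 0 to 1 lower in phenformin vs CLA. The lower ones were Col11a2 without LA replicate 1 and Col9a3 without CLA replicate 3. The cause of these changes was not tested. For the counts under these alternatives, shares over all genes are not given here. Replicate numbers did not pair the arrays: deviations of the 9 same-numbered pairs correlated between -0.29 and 0.58, 2 of them over 0.1, and 3 of 9 arrays matched their own number best. With the replicate block, 17, 15 and 1 collagens were called higher and 0 lower. The filter on dim probe sets kept 23938 probe sets and 27 of the collagens, so for the other 15 low signal limits what a missing call can say.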
